A study of Homo sapiens with 6 samples.

Results

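Histone genes were examined in RNA from Huh7-R cells that had been selected for poly(A) tails before sequencing. The members were the rows whose gene symbol begins with HIST1H, HIST2H, HIST3H, HIST4H, H2AF, H3F3 or H1F, and they were 53 of the 16305 genes in the files. They comprised 38 genes of the replication-dependent histone clusters, 11 genes of histone variants, 3 pseudogenes of H3F3A and H3F3B, and 1 antisense gene (H1FX-AS1). The symbols are the older ones used in the files (HIST1H2BK is now H2BC12, and H2AFZ is now H2AZ1).

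The Huh7 line comes from a human hepatocellular carcinoma. Huh7-R (Huh7SR in the labels) is a pool of its cells made resistant to the kinase inhibitor sorafenib by long exposure to it. Sorafenib was left out of the medium for some days before experiments, per the methods, so that all 6 samples share the resistant background and its withdrawal. In the fostamatinib group, 3 samples were treated with fostamatinib, a tyrosine kinase inhibitor, at 2 µM for 24 h, and in the DMSO group, 3 samples received the solvent for 24 h (the labels write 2 µM for it too). The comparison of the groups asked how fostamatinib changed gene expression in resistant cells. No source says whether the samples of a group are separate cultures, and the p-values then measure only the spread between these samples, which may be technical.

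Histones are the proteins around which DNA is wound, with H2A, H2B, H3 and H4 forming the core of the nucleosome and H1 binding the DNA between nucleosomes. Most are encoded by clustered genes that are transcribed chiefly in S phase, when new DNA must be packaged. Their mRNAs end in a conserved stem-loop, bound by the protein SLBP, instead of a poly(A) tail, and they are degraded quickly when DNA synthesis stops. Some cluster genes also give longer transcripts that run past the stem-loop and are polyadenylated, chiefly in cells that leave the cycle or differentiate. Most variants (such as H2A.Z, encoded by H2AFZ, and H3.3, encoded by H3F3A and H3F3B) are made from genes with ordinary polyadenylated mRNAs throughout the cycle. A library selected for poly(A) tails therefore samples such variants well and the cluster genes only in part.

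The feature that separates the 2 classes could be read from the genome. A search of the 150 bases after each stop codon, for a stem of 6 paired bases beginning with GG and ending with T around a loop of 4 bases with T as the first and the third base, found the stem-loop in 69 of 20175 protein-coding genes, of which 64 were cluster genes. Among the members with an annotation it was found in 32 of 35 cluster genes and in 1 of 11 variants, H2AFX. The following sequences are from GRCh37 (the build called hg19 in the study's methods), each with the stem-loop in capitals and 5 bases on each side, and they are shown for genes that rose strongly, for cluster genes that were not called and for the variant that has the element.
HIST1H2BD, chr6:26158810-26158835, plus strand: ccaaaGGCTCTTTTAAGAGCCacgca
HIST1H2AC, chr6:26124892-26124917, plus strand: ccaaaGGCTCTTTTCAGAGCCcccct
HIST1H1C, chr6:26055967-26055992, minus strand: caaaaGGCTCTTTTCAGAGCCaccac
HIST1H3E, chr6:26225819-26225844, plus strand: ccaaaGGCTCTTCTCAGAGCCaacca
HIST2H4B, chr1:149832330-149832355, minus strand: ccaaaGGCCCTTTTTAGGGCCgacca
HIST3H2A, chr1:228645065-228645090, minus strand: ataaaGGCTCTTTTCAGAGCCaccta
HIST4H4, chr12:14923653-14923678, minus strand: caaaaGGCCCTTTTCAGGGCCcccaa
H2AFX, chr11:118965603-118965628, minus strand: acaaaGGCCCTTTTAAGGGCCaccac

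The most frequent form, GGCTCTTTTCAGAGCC, stood in 17 cluster members of the H1, H2A, H2B and H3 classes. All 8 cluster H4 members had a stem that begins with GGCCCT, as did H2AFX. The uncalled HIST3H2A and HIST4H4 carried the same stem-loop letters as HIST1H2AC and HIST1H4H respectively, both of which rose.

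Regions upstream of the start sites are printed for the cluster genes with most reads, because many cluster members moved together. The motifs searched on both strands, from 250 bases before to 50 bases after the start site, were CCAAT (the CCAAT box), TATAAA (the TATA box), ATTTGCAT (the octamer found in H2B promoters) and AAACACA (the H1 box). In the regions below, GRCh37 and 5′ to 3′, the motifs are in capitals. The first lies between the start sites of HIST1H2BC (minus strand) and HIST1H2AC (plus strand), and the others are the 250 bases before the start site on the gene's own strand.
HIST1H2BC-HIST1H2AC, chr6:26124155-26124399, plus strand: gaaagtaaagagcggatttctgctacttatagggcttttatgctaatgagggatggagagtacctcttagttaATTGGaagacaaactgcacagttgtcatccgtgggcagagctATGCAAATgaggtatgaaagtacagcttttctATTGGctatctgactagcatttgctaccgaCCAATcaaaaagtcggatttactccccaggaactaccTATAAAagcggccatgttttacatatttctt
HIST1H2BD, chr6:26158100-26158349, plus strand: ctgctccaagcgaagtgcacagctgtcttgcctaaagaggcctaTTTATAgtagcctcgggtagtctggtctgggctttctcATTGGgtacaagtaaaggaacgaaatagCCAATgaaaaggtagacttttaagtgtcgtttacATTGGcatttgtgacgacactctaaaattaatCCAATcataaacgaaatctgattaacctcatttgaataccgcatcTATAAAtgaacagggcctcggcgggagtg
HIST1H1C, chr6:26056699-26056948, minus strand: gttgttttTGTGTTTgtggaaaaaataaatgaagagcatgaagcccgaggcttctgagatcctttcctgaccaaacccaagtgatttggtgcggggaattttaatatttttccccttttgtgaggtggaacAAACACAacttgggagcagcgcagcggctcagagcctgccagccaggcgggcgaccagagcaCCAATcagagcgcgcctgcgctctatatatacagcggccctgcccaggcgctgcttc
HIST1H2BK, chr6:27114635-27114884, minus strand: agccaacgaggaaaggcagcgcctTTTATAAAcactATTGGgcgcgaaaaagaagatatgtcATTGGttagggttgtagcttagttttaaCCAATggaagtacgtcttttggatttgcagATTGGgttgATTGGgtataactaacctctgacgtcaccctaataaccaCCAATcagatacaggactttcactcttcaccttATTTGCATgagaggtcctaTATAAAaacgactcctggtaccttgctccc

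The CCAAT box was present in 29 of 35 annotated cluster members (35.9% of all protein-coding genes hold it in the same window), the TATA box in 18 of 35 (9.79% of all), the octamer in 13 of 35 (1.57% of all) and the H1 box in 4 of 35 (4.20% of all). Among the 11 variants these counts were 6, 4, 1 and 2. The octamer lay 130 bases before the start site of HIST1H2AC and 49 bases before that of HIST1H2BK. A match is a description of the letters only. Neighbouring genes that point away from each other have overlapping windows, so a single match can count for both, as the octamer did for HIST1H2AC and HIST1H2BC. The window used for HIST1H3D lies at the start site of the adjacent gene HIST1H2AD.

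Most cluster genes were higher after fostamatinib, while the variants changed less and in both directions. In the background, limma's test (a linear model with a moderated error, Benjamini-Hochberg adjustment over all genes, called at an adjusted p under 0.05) called 47.8% of the 16305 genes, with 23.3% higher and 24.5% lower after fostamatinib. Of the 38 cluster genes 27 were called higher and 0 lower, with 29 at an unadjusted p under 0.05 and again 27 higher and 0 lower with limma-voom on the recovered reads. Their median log2 fold change was 1.02, against 0.0015 over all genes tested. Of the 11 variants 4 were higher and 3 lower, with a median log2 fold change of 0.089. Of the pseudogenes, 1 of 3 was called, and H1FX-AS1 was not.

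The number of cluster genes in the files depends on a filter. The authors dropped a gene only where, in each group, 2 or more of the 3 samples had under 5 reads, so a gene could stay through either group. Of the 66 protein-coding cluster genes of the annotation used here, 34 had a row, and 4 further cluster rows had no entry of their own in it. Of the 38 rows, 8 would not have passed on both groups, and 4 of these were called higher (HIST1H4I, HIST1H4E, HIST1H2BF and HIST1H2AI). These 4 were kept through the fostamatinib group alone, in which they had more reads, so their calls and sizes are tied to the filter. Of the 30 that passed in both groups, 23 were called higher. Depth also set what could be called. Of the 12 cluster genes with under 50 reads in the 6 samples together 5 were called, where 14.8% of all genes of that depth were. HIST1H2BF, HIST1H2AI and HIST1H4I are among these 5, so this count is tied to the filter and cannot be set against that share. Of the 26 with at least 50 reads 22 were called, all higher, where 51.8% of all such genes were called in either direction. HIST1H4E is among the 22, so its part of this count is tied to the filter too.

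**Figure D1:**
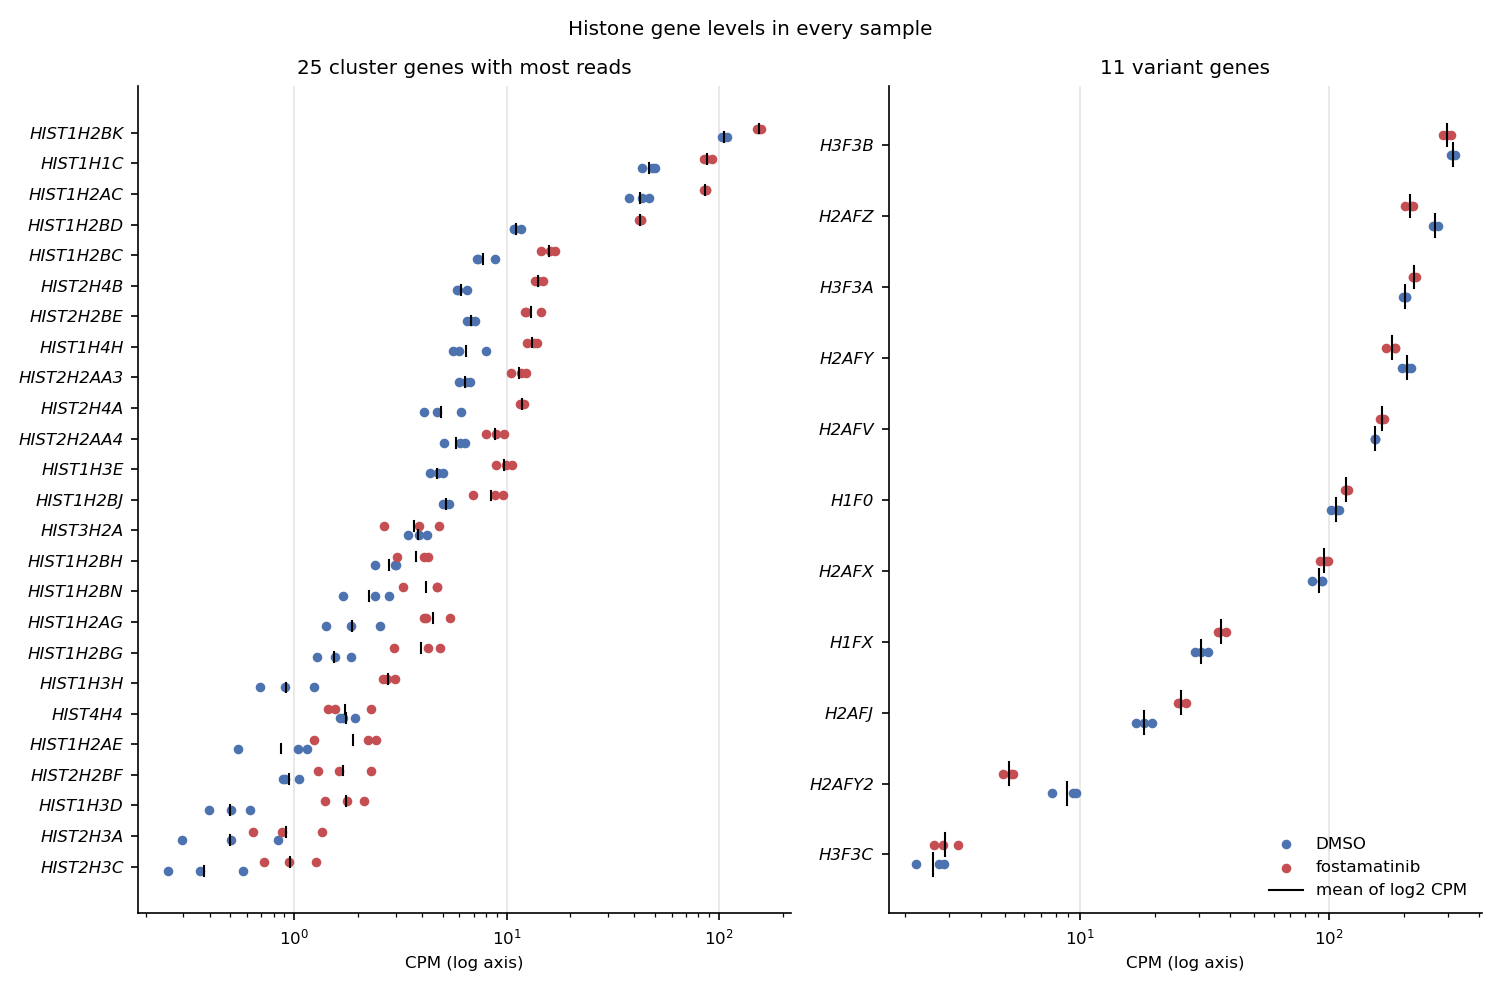
Level of the 25 cluster genes with most reads (left) and of the 11 variant genes (right) in every sample, as CPM (reads scaled to a common library size) on a log axis, with a point per sample and a black tick at the mean of log2 CPM of each group (n = 3). For HIST1H2BD the DMSO samples had 149 to 178 reads and the fostamatinib samples 554 to 613, while the points of HIST3H2A and HIST4H4 overlapped between groups.

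HIST1H1C (the linker histone H1.2) was the only cluster H1 gene with a row. It had 596, 735 and 743 reads under DMSO and 1174, 1317 and 1151 under fostamatinib. All 3 fostamatinib samples lay above all 3 DMSO samples, as they did for 28 of the 38 cluster genes and for 26.8% of all genes. Of these 28, 4 were kept by the filter through the fostamatinib group alone. The log2 fold change of HIST1H1C was 0.91 ± 0.0573 (SE) with an adjusted p of 1.47e-15.

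Among the 9 cluster H2A genes, which encode the core histone that pairs with H2B, 6 rose, and the other 3 (HIST2H2AC, HIST3H2A and HIST1H2AK) were not called. HIST1H2AC had most reads, with 647, 578 and 646 under DMSO and 1171, 1241 and 1151 under fostamatinib, and rose by a log2 fold change of 1.02 ± 0.0613 (SE, adjusted p = 3.74e-16). HIST1H2AG had 25, 21 and 37 reads under DMSO and 56, 59 and 71 under fostamatinib (log2 fold change 1.27, adjusted p = 7.24e-06). HIST1H2AE and HIST1H2AI, with 119 and 42 reads in all, rose by 1.12 and 1.40 on the log2 scale with adjusted p-values of 0.00502 and 0.0189, and both calls rested on single samples. HIST1H2AE was not called without fostamatinib replicate 2 (adjusted p = 0.0505), nor HIST1H2AI without DMSO replicate 3 (0.0919) or fostamatinib replicate 3 (0.0937). The filter kept HIST1H2AI through the fostamatinib group alone.

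HIST2H2AA3 and HIST2H2AA4 are near-identical copies whose reads cannot be assigned with certainty. They were higher by 0.85 and 0.61 on the log2 scale, and their summed level was 12.1 ± 1.05 CPM (SD, n = 3) in the DMSO samples and 20.3 ± 1.68 CPM in the fostamatinib samples. HIST3H2A, a gene outside the large clusters, had 53, 52 and 62 reads under DMSO and 36, 68 and 51 under fostamatinib. These groups overlapped and the log2 difference was -0.06 ± 0.195 (SE, adjusted p = 0.823).

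Of the 13 cluster H2B genes 10 rose. HIST1H2BD showed the largest change among cluster genes with over 100 reads in all, from 149, 178 and 160 reads under DMSO to 590, 613 and 554 under fostamatinib. Its log2 fold change was 1.94 ± 0.0778 (SE, 3.84-fold, adjusted p = 4.43e-21), and it stayed between 1.92 and 1.98 when each sample was left out in turn. HIST1H2BK, which alone took 32.6% of all cluster reads, changed less. It had 1508, 1610 and 1531 reads under DMSO and 2177, 2200 and 1997 under fostamatinib, a log2 fold change of 0.54 ± 0.0445 (SE, adjusted p = 1.40e-12).

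HIST1H2BC had 100, 134 and 108 reads under DMSO and 219, 241 and 193 under fostamatinib, with a log2 fold change of 1.02 ± 0.110 (SE, adjusted p = 9.12e-10). HIST2H2BE had 93, 99 and 105 reads under DMSO and 170, 173 and 191 under fostamatinib, with a log2 fold change of 0.93 (adjusted p = 2.02e-08). For both genes the groups were well apart. HIST1H2BJ, HIST1H2BN and HIST1H2BG rose by 0.70, 0.89 and 1.35 on the log2 scale. HIST2H2BF, HIST1H2BE and HIST1H2BF, with 110, 48 and 47 reads in all, rose by 0.84, 1.20 and 1.61, the last having been kept by the filter through the fostamatinib group alone. HIST2H2BF was not called without DMSO replicate 2 (adjusted p = 0.0539) or fostamatinib replicate 1 (0.156), and HIST1H2BE was not called without DMSO replicate 3 (0.0712), fostamatinib replicate 2 (0.191) or fostamatinib replicate 3 (0.0692). HIST1H2BH was not called, although each fostamatinib sample (56, 60 and 40 reads) lay above each DMSO sample (41, 36 and 44 reads) once scaled to CPM, with a log2 difference of 0.43 and an adjusted p of 0.0665. Leaving out fostamatinib replicate 3 brought it to an adjusted p of 0.025.

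The 7 cluster H3 genes had few reads, 112 to 117 in all in each DMSO sample and 221 to 258 in each fostamatinib sample, and 4 of them rose. HIST1H3E had most, with 69, 72 and 64 reads under DMSO and 122, 150 and 131 under fostamatinib (log2 fold change 1.06 ± 0.134 SE, adjusted p = 3.46e-08). HIST1H3H rose from 12, 10 and 18 reads to 37, 37 and 39 (log2 fold change 1.59, adjusted p = 8.75e-06). The row named HIST1H3D (log2 fold change 1.80) carries an identifier that in the annotation used here spans this gene and the adjacent H2A gene HIST1H2AD, so its reads cannot be given to either. The counts and read totals of H3 genes above include this row, with 5, 9 and 7 reads under DMSO and 24, 30 and 18 under fostamatinib. HIST2H3A and HIST2H3C, again near-identical copies, had log2 differences of 0.87 (not called, adjusted p = 0.101) and 1.35 (called, adjusted p = 0.0118). Without DMSO replicate 1 the calls changed places (0.0341 and 0.0534), and without fostamatinib replicate 1 HIST2H3C was not called (0.0822). Summed, the pair had 0.872 ± 0.244 CPM (SD, n = 3) in the DMSO samples and 1.86 ± 0.637 CPM in the fostamatinib samples.

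Of the 8 cluster H4 genes 6 rose. HIST1H4H had 82, 85 and 119 reads under DMSO and 184, 177 and 183 under fostamatinib (log2 fold change 1.03 ± 0.126 SE, adjusted p = 1.50e-08). HIST2H4A and HIST2H4B share nearly all of their sequence, and together they had 10.97 ± 0.816 CPM (SD, n = 3) in the DMSO samples and 25.9 ± 0.746 CPM in the fostamatinib samples, a 2.36-fold difference of the means. HIST1H4I, kept through the fostamatinib group alone, had a log2 fold change of 2.75 ± 0.647 (SE, adjusted p = 0.000576). It had only 0, 3 and 3 reads under DMSO and 10, 15 and 9 under fostamatinib, so that the size of the change depends on what is added to the count (1.92 when 2 reads were added in place of 0.5). HIST1H4E and HIST1H4K, with 51 and 44 reads, were called at adjusted p-values of 0.0299 and 0.0218, the former kept through the fostamatinib group alone. HIST1H4E lost the call without DMSO replicate 1 (0.0562), DMSO replicate 2 (0.193), fostamatinib replicate 2 (0.0815) or fostamatinib replicate 3 (0.117), and HIST1H4K without DMSO replicate 2 (0.119) or fostamatinib replicate 1 (0.0852). Without the mean-variance trend neither was called (0.136 and 0.0506), nor was HIST1H2AE (0.0758). HIST4H4, on chromosome 12, had 23, 29 and 24 reads under DMSO and 21, 20 and 30 under fostamatinib, with overlapping groups and a log2 difference of -0.02 ± 0.261 (SE, adjusted p = 0.949).

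**Figure D2:**
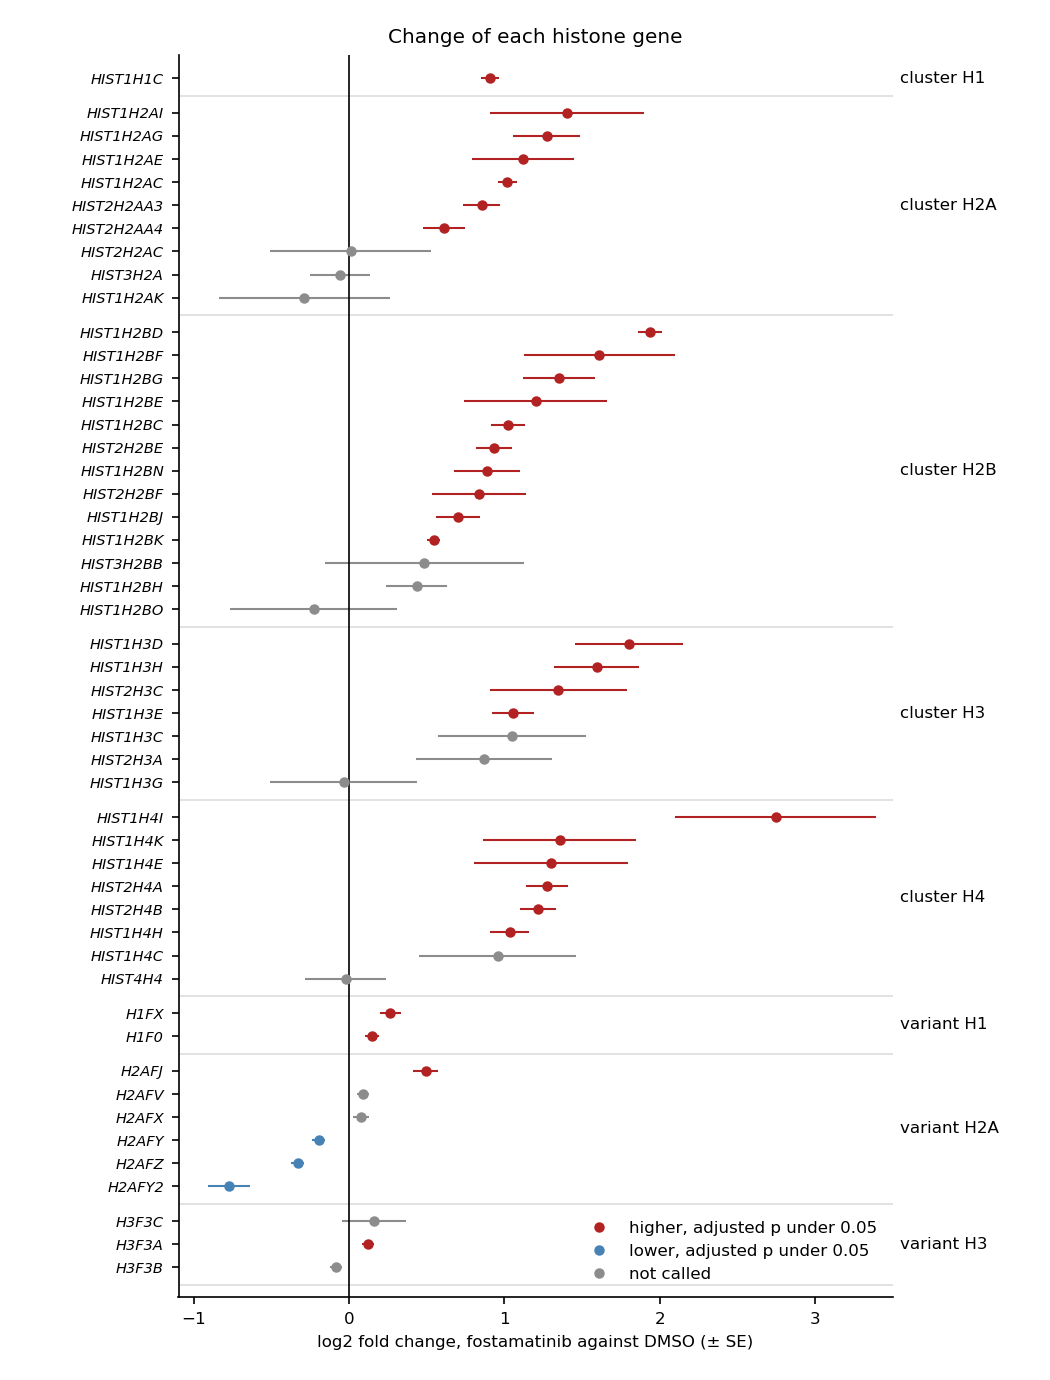
Log2 fold change of each cluster and variant histone gene between fostamatinib and DMSO samples (n = 3 each), with bars for the standard error from limma, grouped by histone class. Points above 0 are higher after fostamatinib, and 27 cluster genes and 4 variants were called higher (red) while 3 variants, all of H2A, were called lower (blue).

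By locus, 20 of the 26 HIST1 genes (chromosome 6) and 7 of the 9 HIST2 genes (chromosome 1) were called higher. Of these HIST2 rows 6, with 5 of the calls, are near-identical copies whose reads cannot be assigned with certainty, so they are not separate results. The 20 HIST1 calls include HIST1H4I, HIST1H4E, HIST1H2BF and HIST1H2AI, kept through the fostamatinib group alone, so that count is tied to the filter. None of the 3 genes at the HIST3 and HIST4 loci was called, and the 3 together had 80 to 89 reads in each DMSO sample and 63 to 90 in each fostamatinib sample. HIST3H2BB, the other gene, had 22 reads in all (log2 difference 0.48, adjusted p = 0.566). No test of the difference between loci was made.

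Many H2A and H2B genes stand head to head on a shared promoter region. In the annotation there were 10 such pairs with start sites 193 to 250 bases apart, and in 5 of them both genes had a row. For HIST1H2AC and HIST1H2BC, whose shared region is printed above, both genes rose by a log2 fold change of 1.02. HIST1H2AG and HIST1H2BJ also both rose, by 1.27 and 0.70. In the other 3 pairs a gene with 22 to 33 reads was not called. HIST2H2BE rose by 0.93 where its partner HIST2H2AC had a log2 difference of 0.0085 ± 0.517 (SE), and HIST1H2BN rose by 0.89 where HIST1H2AK had -0.29 ± 0.549. Neither gene of the pair HIST3H2A (322 reads, -0.06 ± 0.195) and HIST3H2BB (22 reads, 0.48 ± 0.641) was called. The errors of the genes with few reads are large, and no test of the difference between partners was made.

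The cluster genes differ in whether their annotation holds a transcript that continues past the stem-loop, which is the form a poly(A) selection would retain. In the annotation used here, 15 of the 17 cluster genes with an annotated end at least 500 bases past the stem-loop had a row in the files, against 19 of the 49 others. Those 15 genes took 41.7% of the cluster reads and 12 of them were called higher, with a median log2 fold change of 1.02. Of the 17 members whose annotated ends all lay nearer to the stem-loop, 10 were called higher, with a median of 0.96. HIST1H2BK and HIST1H1C were among the latter, with annotated ends 5 and 4 bases past the stem-loop. A further list of 10 cluster genes was written from general knowledge as giving polyadenylated transcripts, and HIST1H2BK and HIST1H1C are on it. Most cluster reads fell on this list, with 3246 to 3496 of 3941 to 4257 in each DMSO sample. In each fostamatinib sample it held 5440 to 5974 of 6773 to 7476. The list had 7 higher and 0 lower (median 0.80), and the other 28 cluster genes had 20 higher and 0 lower (median 1.09). HIST1H4I, HIST1H4E, HIST1H2AI and HIST1H2BF, called higher but kept by the filter through the fostamatinib group alone, are all among these 28. All but HIST1H2BF are also among the 17 members with nearer ends. Counts and medians of both groups are therefore tied to the filter. The deposited gene counts do not show which transcript form a read came from.

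Over the 38 cluster genes the summed level was 286, 277 and 286 CPM under DMSO and 518, 524 and 511 CPM under fostamatinib. The groups did not overlap, and the means of 283 ± 5.19 and 518 ± 6.70 CPM (SD, n = 3) differed 1.83-fold, by more than the spread within a group. The 4 genes HIST1H2BK, HIST1H1C, HIST1H2AC and HIST1H2BD held 72.2% of these reads. Without HIST1H2BK the log2 difference of the sum went from 0.87 to 1.04. By class the sums differed 1.87-fold for H1 (a single gene), 1.89-fold for H2A, 1.72-fold for H2B, 2.23-fold for H3 (with the row HIST1H3D) and 2.16-fold for H4.

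Over the 11 variants the summed level was 1386, 1408 and 1398 CPM under DMSO and 1382, 1347 and 1327 CPM under fostamatinib. The fostamatinib samples were all lower, but replicate 1 of the 2 groups differed little, and the mean was 0.968-fold that of the DMSO samples. Cluster genes made up 16.9 ± 0.351% (SD, n = 3) of the cluster and variant reads in the DMSO samples and 27.7 ± 0.389% in the fostamatinib samples. The ratio of cluster to variant reads was 0.203 ± 0.0051 in the DMSO samples and 0.383 ± 0.0074 in the fostamatinib samples, and it does not depend on the scaling between libraries. In bulk RNA, a change in the share of cells that express a gene cannot be told apart from a change in RNA per cell.

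**Figure D3:**
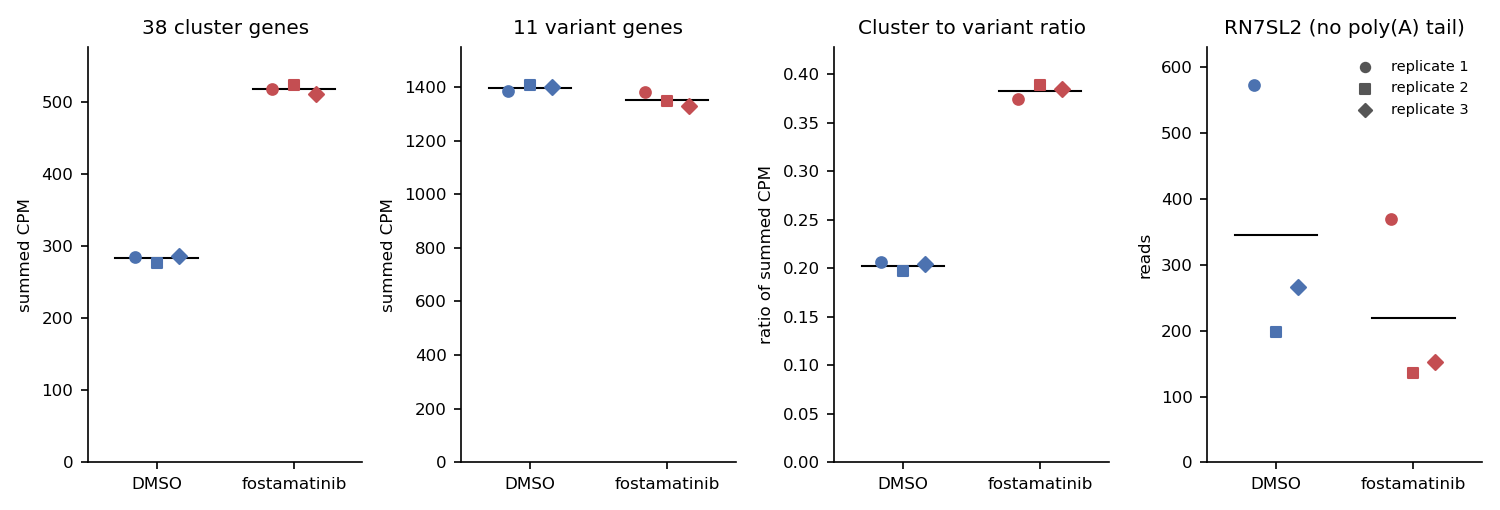
Summed CPM of the 38 cluster genes and of the 11 variants, the ratio of these sums, and reads of RN7SL2 (an RNA without a poly(A) tail) in every sample, with the replicate number as the marker and the group mean as a line, all on axes from 0. The cluster sum is 277 to 286 CPM in the DMSO samples and 511 to 524 CPM in the fostamatinib samples, whereas RN7SL2 is highest in replicate 1 of both groups.

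Because cluster histone mRNAs mostly lack a poly(A) tail, the carry-over of other RNAs without one was measured as well. Of 27 such RNAs listed, 4 had rows in the files. RN7SL2, part of the signal recognition particle, had 573, 198 and 266 reads under DMSO and 369, 135 and 153 under fostamatinib. It was highest in replicate 1 of each group, and its log2 difference was -0.57 ± 0.248 (SE, adjusted p = 0.0564). RN7SL3, SNORD3A and SNORA73B had 62 to 83 reads in all and log2 differences of -0.64, -0.20 and -1.08. None of the 4 was called, with limma or with limma-voom (limma-voom adjusted p = 0.063 for RN7SL2 and 0.0658 for SNORA73B). In the limma test RN7SL2 and SNORA73B had an unadjusted p under 0.05. Both were called lower when DMSO replicate 2 (adjusted p = 0.00219 for RN7SL2 and 0.0352 for SNORA73B) or fostamatinib replicate 1 (0.000487 and 0.0256) was left out, RN7SL2 also without DMSO replicate 3 (0.039) and SNORA73B without fostamatinib replicate 3 (0.0472). With the replicate number as a block in limma, RN7SL2 and SNORA73B were also called lower (adjusted p = 2.41e-09 and 0.0326). Over all genes, though, the replicate numbers did not pair the samples. In the DMSO samples the sum of the 4 RNAs was 14.2 to 47.1 CPM and the cluster sum 277 to 286 CPM. The part of such RNA in the cluster result was not tested.

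The variants ranged from 230 reads in all (H3F3C) to 26004 (H3F3B), and their log2 fold changes from -0.77 to 0.49. Of the H2A variants, H2AFZ encodes H2A.Z, which is placed at promoters and enhancers. It had 3624, 4002 and 4050 reads under DMSO and 2995, 3050 and 2674 under fostamatinib. The groups were apart, and H2AFZ fell by 0.33 ± 0.0401 (SE) on the log2 scale (adjusted p = 1.15e-08). H2AFV, which encodes the second H2A.Z protein, was not called, with 2115, 2339 and 2279 reads under DMSO and 2204, 2361 and 2166 under fostamatinib (log2 difference 0.089, adjusted p = 0.0764). Together the H2A.Z genes had 419 ± 5.73 CPM (SD, n = 3) in the DMSO samples and 374 ± 7.87 CPM in the fostamatinib samples.

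H2AFY2 and H2AFY encode the macroH2A proteins, which carry a large domain beside the histone fold and are found on silent chromatin, and both fell. H2AFY2 had 106, 147 and 139 reads under DMSO and 67, 75 and 71 under fostamatinib, a change of -0.77 ± 0.135 on the log2 scale (SE, adjusted p = 1.06e-05). H2AFY had 2710, 3257 and 3072 reads under DMSO and 2530, 2422 and 2438 under fostamatinib, a change of -0.20 ± 0.0432 (SE, adjusted p = 0.00024). H2AFJ, which encodes the H2A.J protein, rose, with 231, 296 and 269 reads under DMSO and 367, 352 and 330 under fostamatinib (log2 fold change 0.49 ± 0.0807 SE, adjusted p = 3.85e-06). H2AFX, whose protein is phosphorylated at DNA breaks, had 1288, 1430 and 1273 reads under DMSO and 1358, 1381 and 1219 under fostamatinib. Its groups overlapped, and this variant with a stem-loop had a log2 difference of 0.077 ± 0.0499 (SE, adjusted p = 0.214).

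The H3.3 genes differed in sign. H3F3A had 2731, 3095 and 3011 reads under DMSO and 3058, 3093 and 2868 under fostamatinib, which on the CPM scale placed all fostamatinib samples higher (log2 fold change 0.12 ± 0.0392 SE, adjusted p = 0.0114). H3F3B had 4411, 4772 and 4585 reads under DMSO and 4236, 4220 and 3780 under fostamatinib (log2 difference -0.083 ± 0.0383 SE, adjusted p = 0.0748, not called). Their sum was 515 ± 3.60 CPM (SD, n = 3) in the DMSO samples and 515 ± 14.4 CPM in the fostamatinib samples. The small rise of H3F3A was not called without DMSO replicate 1 (adjusted p = 0.0554), without fostamatinib replicate 1 (0.0522) or without the mean-variance trend (0.0677), and H3F3B was called lower with scaling by library size alone (0.0413), without DMSO replicate 3 (0.0398) and without fostamatinib replicate 1 (0.0348). H3F3C, a copy of H3F3B that lacks introns, had 230 reads in all and was not called (0.16, adjusted p = 0.557). The pseudogene H3F3AP6, which shares most of its sequence with H3F3A, was just called (0.25, adjusted p = 0.049) and lost the call in 9 of 14 alternatives.

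Of the H1 variants, H1F0 encodes H1.0, the linker histone of resting and differentiated cells. It had 1397, 1646 and 1627 reads under DMSO and 1622, 1697 and 1529 under fostamatinib, with a log2 fold change of 0.15 ± 0.0462 (SE, adjusted p = 0.00915). That call was lost without DMSO replicate 1 (adjusted p = 0.0851) and without the mean-variance trend (0.0683). H1FX, which encodes H1.X, had 450, 469 and 430 reads under DMSO and 533, 511 and 481 under fostamatinib (log2 fold change 0.27 ± 0.0677 SE, adjusted p = 0.00136). The H1 variants together had 137 ± 2.58 CPM (SD, n = 3) in the DMSO samples and 154 ± 2.53 CPM in the fostamatinib samples.

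Per kilobase of the annotated main transcript, the DMSO level was 307 CPM for H2AFZ, 188 CPM for H3F3A and 116 CPM for H3F3B. Among cluster genes it was 214 CPM for HIST1H2BK, 82.1 CPM for HIST1H2AC, 64.4 CPM for HIST1H1C and 22.9 CPM for HIST1H2BD, and the fostamatinib level of HIST1H2BD was 87.7 CPM. These levels use GENCODE version 44 lengths where the authors counted on version 22. The main transcripts of HIST1H2AC and HIST1H2BD have 519 and 486 bases, where all annotated exons together cover 1668 and 861. For H2AFZ these lengths are 866 and 2270. A longer counted form would lower any of these levels, so levels of different genes compare only roughly. The value of HIST1H2BK is uncertain as well, since 57.2% of its 50-base windows also occur in another annotated gene.

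Genes that act on histone genes and their mRNAs are given next, against the 24.5% lower and 23.3% higher over all genes. Of 8 genes for transcription of histone genes, 6 fell and 2 rose (GON4L and HINFP). CCNE2 (cyclin E2, which drives entry into S phase with CDK2) went from 180, 219 and 237 reads under DMSO to 57, 54 and 63 under fostamatinib, a change of -1.77 ± 0.129 on the log2 scale (SE, adjusted p = 6.61e-14). CDC25A, which activates CDK2, changed by -0.87, CDK2 by -0.20 and CASP8AP2 by -0.20, whereas GON4L rose by 0.14, a call lost without fostamatinib replicate 3 (adjusted p = 0.0934) or the mean-variance trend (0.0796). HINFP, a transcription factor of histone H4 genes, rose by 0.28 (adjusted p = 0.00651), and NPAT, the coactivator at the histone loci that cyclin E with CDK2 phosphorylates, changed by -0.33 (adjusted p = 0.000306). Both are named here after their values were seen.

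Of 12 genes for 3′ end formation of histone mRNA, 7 fell and 1 rose. SLBP, which binds the stem-loops printed above, had 2754, 2983 and 2935 reads under DMSO and 2102, 2183 and 1939 under fostamatinib (-0.39 ± 0.0411 SE, adjusted p = 6.09e-10). LSM11, a part of the U7 particle that directs the cleavage, changed by -0.78, ZNF473 by -0.43 and CPSF2 by -0.25, while SYMPK, a scaffold of the cleavage complex, rose by 0.34. SRRT was not called. Of 13 genes for histone mRNA decay, 5 fell and 3 rose, with a median log2 fold change of -0.072 and 8 of 13 called against 47.8% of all genes. The enzymes ZCCHC11 and ZCCHC6, which add uridines to RNA ends, rose by 0.54 and 0.37, LSM6 changed by -0.66, and UPF1 and LSM4 were not called.

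Histone chaperones carry histones to DNA. Of 29 listed, 14 fell and 1 rose (ATRX, named after its value was seen), with a median log2 fold change of -0.12. Taking both directions, 15 of 29 were called, close to the 47.8% of all genes. NAP1L1 had 11093, 11846 and 13039 reads under DMSO and 7795, 8485 and 7903 under fostamatinib, a change of -0.48 on the log2 scale (adjusted p = 5.58e-13). SET changed by -0.45 and SUPT16H by -0.24. CHAF1B, a subunit of the CAF-1 complex that loads new H3 and H4 behind the replication fork, changed by -0.98, and MMS22L, which acts with TONSL at stalled forks, by -1.06. RBBP7 was not called.

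All 20 S phase genes on the list fell (SLBP is among them), with a median log2 fold change of -1.01 and values from -1.79 to -0.39. MCM7 had 4132, 4435 and 4238 reads under DMSO and 2271, 2333 and 2126 under fostamatinib. RRM1 and RRM2, the subunits of ribonucleotide reductase, changed by -0.57 and -0.87, MCM5 by -1.55 and GINS2 by -1.79. Of 16 genes of G2 and M phase, 9 rose and 3 fell, with a median of 0.10. AURKA rose by 0.77 and CENPE by 0.81 (0.51 without fostamatinib replicate 3 and 1.01 without fostamatinib replicate 1), TOP2A and TPX2 each rose by 0.10, and MKI67 was not called. In the same samples 27 of the 38 cluster histone genes were higher and 0 of the 20 S phase genes were. Of the 30 cluster genes that passed the filter in both groups, 23 were higher. The small rise of TOP2A was not called without DMSO replicate 1 (adjusted p = 0.0729), DMSO replicate 2 (0.0647), fostamatinib replicate 1 (0.0951) or fostamatinib replicate 2 (0.102), nor that of TPX2 without fostamatinib replicate 1 (0.0528) or fostamatinib replicate 2 (0.0635). Without the mean-variance trend, TOP2A, TPX2 and CENPE were not called (0.174, 0.103 and 0.0652).

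**Figure D4:**
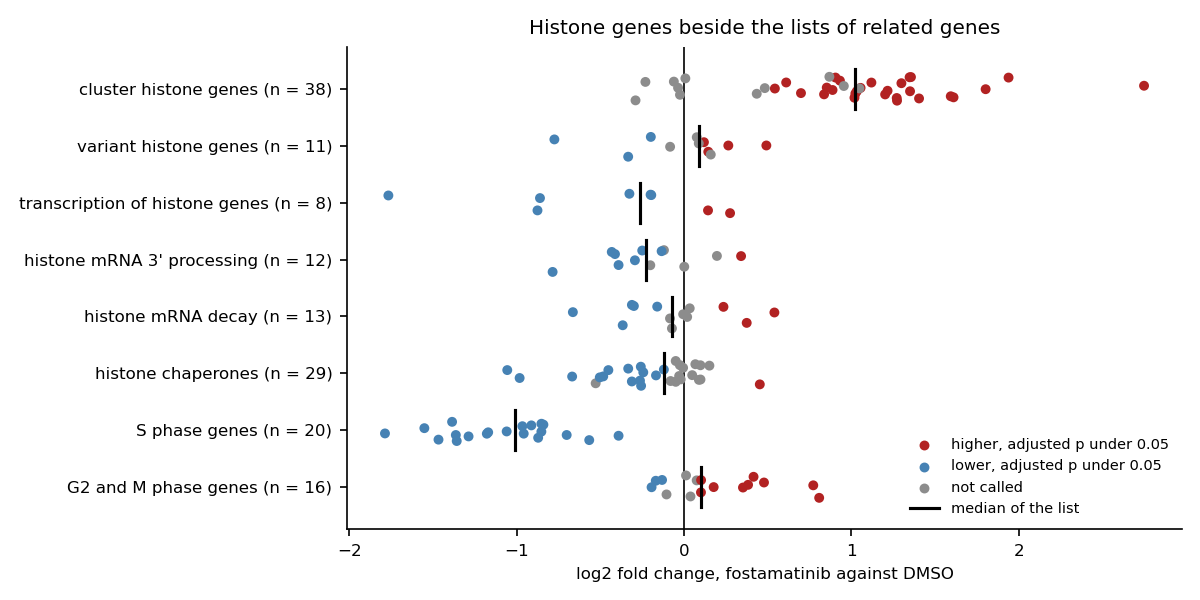
Log2 fold change between fostamatinib and DMSO samples (n = 3 each) of the cluster and variant histone genes beside 6 lists of related genes, with a point per gene coloured by the call and a black line at the median of the list (points are spread vertically for clarity). The median is 1.02 for the 38 cluster genes, -1.01 for the 20 S phase genes and within 0.27 of 0 for the other lists.

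Hepatocyte markers stood for the labelled cell type, and all 10 had rows, summing to 4324 to 4592 CPM in the DMSO samples and 5566 to 5925 CPM in the fostamatinib samples. Of these 10 markers 9 were called higher, where 23.3% of all genes were. The leukocyte markers PTPRC, CD3E and CD68 had no row (LYZ and ITGAM summed to 14.97 to 18.7 CPM over all samples), of the endothelial markers PECAM1 alone had a row (6.13 to 9.93 CPM), and 5 of 6 fibroblast markers had rows, led by COL1A2 and LUM, summing to 297 to 306 CPM in the DMSO samples and 308 to 312 CPM in the fostamatinib samples. Among the fibroblast markers COL1A2 and PDGFRB were called higher (0.37 and 0.95 on the log2 scale) and LUM lower (-0.40), so their near-equal sums hide changes in both directions. The part of these cells or genes in the histone result was not tested. Library depth on the genes kept was 13303451 to 15272737 reads per sample.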

How the data were processed

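RNA-seq data of Huh7-R cells, 3 samples treated with fostamatinib and 3 with DMSO, were processed as deposited. Libraries were made with a directional kit after poly(A) selection, per the labels. HISAT was used by the authors for mapping to hg19 and featureCounts for gene counts on GENCODE version 22, after which they dropped genes of low count and scaled by the TMM method (trimmed mean of M values). Whether counting used the strand and how reads that map to several genes were treated is not given in the sources used here. Each deposited value is a log2 CPM, for which 0.5 was added to the count and the library size was scaled by its TMM factor. Reads were recovered from them, all within 0.05 of a whole number.

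The deposited log2 CPM of 16305 genes were analysed in R 4.3.3 with limma 3.58.1. The model held treatment alone, eBayes was run with a mean-variance trend, and p-values were adjusted over all genes by the Benjamini-Hochberg method. The script was tested on simulated data. The moderated test rests on 4 residual degrees of freedom per gene plus those pooled from other genes. Log2 fold changes of genes with few reads are uncertain and depend on the 0.5 added to each count. Sums over genes use the recovered reads scaled to the same library size (CPM) and have no test.

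Rows were called cluster genes where the symbol begins with HIST1H to HIST4H. The other rows were split by their annotation into variants, pseudogenes and an antisense gene. Positions and sequences are from GRCh37 with GENCODE version 44 mapped to it. Of the 53 rows 48 were found by identifier and 2 by symbol, and HIST2H2AA3, HIST1H2BG and HIST1H2BF had no entry. Sequence shared with other genes was measured over windows of 50 bases.

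All 11 variants are named, with the 25 cluster genes with most reads, any other member that was called, and, of each list, the 4 genes with most reads and the 2 with the largest change among those called. The members and lists were chosen with earlier results of these data known. Alternatives were limma-voom on recovered reads, no trend, other size factors (relative log expression, library size alone), filters of 10 reads in every sample or 5 reads in both groups, 2 reads added, the replicate number as a block, and each sample left out in turn. For the sums, genes listed as polyadenylated, near-identical copies or genes with under 10 reads were also left out. The sum without HIST1H2BK and the count without genes that share over 50% of their windows or have no annotation were added after seeing the data. Sequences were read with pysam 0.24.0 and tables built with pandas 2.3.3 in Python 3.11.15.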

Additional observations from a re-analysis of the deposited data

How the results depend on the processing

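The count of cluster genes called (27 of 38, all higher) was 18 of 21 when at least 10 reads were required in every sample, 23 of 30 when both groups had to pass the filter, 25 without the mean-variance trend, 17 of 27 without genes that share over 50% of their windows or have no annotation, and 24 to 26 with a sample left out, with 0 lower under each of these. Replicate numbers did not pair the samples (correlations of the deviations of same-numbered samples were 0.0278, -0.0192 and 0.0132), and a block for the replicate number gave 27 cluster genes, 7 variants and 34 of the 53 members as called. The RNAs without a poly(A) tail did follow the number, with most reads in replicate 1 of each group, and the block called 2 of 4 of them lower (RN7SL2, adjusted p = 2.41e-09, and SNORA73B, 0.0326) where 0 were called without it. That count was 1 with 2 reads added, 1 with at least 10 reads in every sample, and 0 to 2 with a sample left out. The 7 variants called (4 higher, 3 lower) became 5 (2 higher, 3 lower) without the trend and 5 to 8 with a sample left out (lowest without DMSO replicate 1), so the balance of directions among variants is not settled. Without the trend 5 histone mRNA decay genes and 5 G2 and M phase genes were called, against 8 and 12. The log2 difference of the cluster sum (0.87) was 1.03 without the 10 genes listed as polyadenylated. It was 1.04 without HIST1H2BK and 0.86 to 0.88 with a sample left out. That of the ratio (0.92) was 1.07 without the same 10 genes. Genes off that list with annotated ends far past the stem-loop, such as HIST1H4H and HIST2H4B, stayed in these sums, so they do not isolate mRNA without a poly(A) tail. Another scaling shifted the median of all genes by under 0.02 on the log2 scale. Of the genes named, 5 that were not called changed sign in some alternatives. With a sample left out HIST3H2A ranged from -0.25 to 0.17, HIST4H4 from -0.23 to 0.11, LSM4 from -0.054 to 0.043, SNORD3A from -1.05 to 0.73 and SRRT from -0.030 to 0.020, and SRRT was -0.0091 with library size alone. None of the called members changed sign. The causes of these changes were not tested. A run without any filter was not made, since the files used here are already filtered.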
